A study of Mus musculus with 12 samples.

Results

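The 10 regulators described here are the peroxisome proliferator-activated receptors Ppara, Ppard and Pparg, their partner receptors Rxra, Rxrb and Rxrg, the C/EBP factors Cebpa and Cebpb, the zinc finger factor Klf15 and the Mediator subunit Med1. Every probe set that the array annotation assigned to one of these symbols alone was taken, which gave 22 probe sets for 10 genes, of 45101 probe sets and 18194 genes on the array. They were followed in white adipose tissue of mice kept in the cold or as controls, on 12 Affymetrix arrays in 4 groups of 3. The groups were cold for 5 weeks, control for 5 weeks, cold for 1 week and control for 1 week. All were male C57/BL6 mice of 6 to 8 weeks of age, and the labels name no engineered allele. They had lived at 22 °C. The treatment text describes an adaptation at 18 °C over 1 to 3 weeks and then a move to 4 °C. The control temperature is given in conflicting ways, with 30 degrees in the sample titles but room temperature under the source. The fat depot is not stated. Nothing in the labels ties the 3 arrays of a group to separate mice, so the spread behind the p-values may be technical.

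PPARs are nuclear receptors that bind fatty acids and their derivatives and act on DNA as pairs with an RXR. PPAR gamma, together with C/EBP alpha, C/EBP beta and C/EBP delta, drives the formation of fat cells and keeps them lipid-storing, and its agonists are antidiabetic drugs. PPAR alpha switches on genes of fatty acid oxidation and is abundant in liver and brown fat, and PPAR delta does related work in muscle and other tissues. C/EBP beta is an early factor of adipogenesis and, together with PRDM16, of the brown fat programme. KLF15 takes part in adipogenesis and in glucose, amino acid and acetate metabolism. MED1 is the Mediator subunit that nuclear receptors contact through its LXXLL motifs. In the cold, noradrenaline raises cAMP in fat cells through beta-adrenergic receptors.

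Ppara was higher in the cold at both times, and Cebpb on both of its probe sets at 1 week and on 1 of 2 at 5 weeks. Klf15 was lower at both times. Rxra was also lower at 5 weeks, while Rxrb and 1 of 4 Med1 probe sets were higher and Pparg was lower at 1 week. Ppard, Rxrg and Cebpa passed the test at neither time. Of the 22 probe sets, 16 passed a filter on low signals (over log2 4 on at least 3 arrays), and each of the 10 genes had at least 1 of these. The other 6 were dim on all arrays and were not tested: 3 of Med1 (1439408_a_at, 1450402_at and 1453972_x_at, log2 1.96 to 2.72), 1 of Ppard (1425703_at, log2 2.23 to 2.35) and 2 of Rxra (1425762_a_at and 1430497_at, log2 2.23 to 3.61). A further probe set that names Ppard together with a neighbouring transcript, 1810013A23Rik, was left out (1447902_at, log2 3.37 to 4.08).

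The signals are log2 values, and each change is the mean of the 3 cold arrays minus the mean of the 3 control arrays. It was tested with limma over all 26510 probe sets above the filter, and an adjusted p under 0.05 counted as a call. At 5 weeks, 4 of the 16 probe sets were called higher and 2 lower, where 12.6% of all tested probe sets were called higher and 18.5% lower. At 1 week, 7 of the 16 were called higher and 2 lower, where 17.5% of all tested probe sets were called higher and 27.2% lower. Counted by gene, 2 were higher, 2 lower and 6 not called at 5 weeks, and 4 were higher, 2 lower and 4 not called at 1 week. All cold arrays lay above all control arrays for 5 of the 16 probe sets at 5 weeks (27.1% of all probe sets) and for 8 at 1 week (27.5%). All cold arrays lay below for 2 at 5 weeks (28.5%) and for 2 at 1 week (29.9%). The cold effect differed between the times for 2 of the 16, 1 larger and 1 smaller at 5 weeks, where 10.2% of all tested probe sets were called larger and 9.47% smaller. The median change of the 16 was 0.04 at 5 weeks and 0.35 at 1 week, and that of all tested probe sets -0.02 at 5 weeks and -0.04 at 1 week.

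The start regions of the 3 genes called at both times, Ppara, Cebpb and Klf15, are shown because their changes carry the findings of both times. Each is the 250 bases before the gene's annotated start in RefSeq, build GRCm38.p6, and capitals mark matches to TGACG on either strand, the half-site of the cAMP response element that CREB binds. The array measures RNA, so a match is a feature of the sequence and not a site shown to be bound.
Ppara (chr15:85735526-85735775, plus strand): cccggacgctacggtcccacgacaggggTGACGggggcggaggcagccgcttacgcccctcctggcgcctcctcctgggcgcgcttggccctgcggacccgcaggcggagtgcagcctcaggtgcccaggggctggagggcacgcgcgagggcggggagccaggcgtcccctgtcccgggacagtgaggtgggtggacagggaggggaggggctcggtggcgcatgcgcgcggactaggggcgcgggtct
Cebpb (chr2:167688665-167688914, plus strand): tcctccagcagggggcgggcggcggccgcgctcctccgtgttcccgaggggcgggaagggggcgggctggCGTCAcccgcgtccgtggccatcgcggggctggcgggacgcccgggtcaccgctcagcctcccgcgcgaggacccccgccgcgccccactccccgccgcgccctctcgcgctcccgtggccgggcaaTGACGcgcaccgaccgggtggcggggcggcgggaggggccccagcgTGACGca
Klf15 (chr6:90462326-90462575, plus strand): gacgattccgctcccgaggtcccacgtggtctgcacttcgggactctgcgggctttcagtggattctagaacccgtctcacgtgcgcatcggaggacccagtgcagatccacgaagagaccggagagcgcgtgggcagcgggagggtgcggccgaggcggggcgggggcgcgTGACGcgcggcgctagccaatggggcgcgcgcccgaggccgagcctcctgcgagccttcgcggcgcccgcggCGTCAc
All 10 genes had such windows, 15 in all, since some have several starts. TGACG was present in 4 of the 15 windows, those of Ppara, Cebpb and Klf15 above and 1 of Rxrb, and in 17.8% of the 32851 windows in the RefSeq table. The nuclear receptor half-site AGGTCA was present in 4 of the 15 windows, of Rxra, Rxrg and Pparg, and in 14% of all windows. The direct repeat of AGGTCA with 1 free base between its copies, which PPAR and RXR bind as a pair, was in 0 of the 15 windows, in 0 of the 43 windows found for 36 listed PPAR target genes, and in 0.0335% of all windows. The C/EBP motif TTGCNNAA was in 2 of the 15 windows, of Pparg and Rxrg, and in 9.56% of all windows. Both strands were searched, and the shorter half-site overlaps the direct repeat. Only exact matches within the 250 bases were sought. At 0.0335% of all windows, a 0 for the direct repeat among so few windows was nearly certain beforehand. It does not show that these genes lack sites for PPAR and RXR.

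Some arrays stand apart in ways that touch these values. The mean signal of 9 brown and beige adipocyte markers was log2 10.85 to 11.37 on the cold arrays at 5 weeks and 7.20 to 7.52 on their controls, and 11.45 to 11.73 on the cold arrays at 1 week and 6.80 to 7.61 on their controls. The mean of 9 adipocyte markers was 12.47 to 12.80 in cold and 12.85 to 12.97 in control tissue at 5 weeks, and 12.92 to 12.99 in cold and 12.21 to 12.88 in control tissue at 1 week, so the labelled tissue carried its defining markers on every array. The mean of 7 lymphocyte markers was 8.80 to 8.84 in cold and 9.78 to 9.85 in control tissue at 5 weeks, and 8.60 to 9.00 in cold and 9.32 to 10.08 in control tissue at 1 week. Macrophage markers (8 genes, 9.74 to 10.11 in cold and 10.97 to 11.02 in control tissue at 5 weeks, 10.11 to 10.25 in cold and 10.42 to 10.69 in control tissue at 1 week) and progenitor markers (8 genes, 10.63 to 10.78 in cold and 11.02 to 11.18 in control tissue at 5 weeks, 10.75 to 10.98 in cold and 11.40 to 11.60 in control tissue at 1 week) also differed. In bulk tissue, fewer cells of a type and less RNA per cell cannot be told apart. Skeletal muscle markers (12 of 13 tested) averaged 4.64 to 4.87 on the cold arrays at 5 weeks and 8.42 to 8.72 on all 3 of their controls, and they were high on cold array 2 at 1 week (10.33) against 5.01 to 5.59 on the other 5 arrays of that time. The array also reads Gapdh at both ends of its transcript, and the 3′ minus 5′ difference of these control signals, a measure of RNA or labelling quality, was 3.01 on cold array 3 at 5 weeks and 3.00 and 3.12 on control arrays 2 and 3 at 1 week, against -0.08 to 0.96 on the other 9 arrays. The same difference for Actb was 2.02, 1.84 and 2.80 on the cold arrays and 1.04, 1.10 and 1.16 on the control arrays at 5 weeks, and 1.01 to 1.33 on the cold and 1.22 to 1.35 on the control arrays at 1 week, so it set all 3 cold arrays of 5 weeks apart from the other 9. The muscle, Gapdh and Actb signals were each added to the fit as a covariate, the last after the data were seen, and arrays were left out; the part of the other markers in the changes below was not tested. With the Actb covariate the SE of the 5 week effect was 2.08 times as large (median over all probe sets), 1056 probe sets were called at 5 weeks, against 8254 without it, and 1 of the 6 regulator probe sets called at 5 weeks, Ppara 1457721_at, was still called. As this signal sets the cold arrays of 5 weeks apart, no 5 week change below can be fully told apart from it. With the covariate some changes stayed near their size, such as Klf15 (-0.68 without it and -0.72 with it). Others did not, such as Ppara 1449051_at (2.52 without it and 1.09 with it).

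Ppara, the receptor of the fat oxidation programme, had the probe set with the largest change of the 16 at both times, and each of its 3 probe sets was called at both. At 1 week Cebpb 1427844_a_at lay among them with a change of 2.71. On 1439675_at the signal was 9.10, 9.13 and 9.28 on the cold arrays and 6.30, 5.44 and 5.75 on the control arrays at 5 weeks, a change of 3.34 ± 0.40 on the log2 scale (SE, n = 3 each, limma adjusted p = 0.000191), or 10.1-fold. At 1 week it was 8.84, 8.31 and 7.91 on the cold arrays and 6.56, 5.16 and 4.79 on the control arrays, a change of 2.85 ± 0.40 (SE, limma adjusted p = 0.000302), or 7.21-fold. All 6 cold arrays lay above all 6 control arrays, with more than 1 log2 unit between the nearest of them. On 1457721_at the signal was 8.87, 8.89 and 9.52 in cold and 5.78, 5.97 and 5.96 in control tissue at 5 weeks, a change of 3.19 ± 0.23 (SE, limma adjusted p = 6.78e-06). At 1 week it was 7.68, 7.86 and 7.18 in cold and 6.48, 5.99 and 5.87 in control tissue, a change of 1.46 ± 0.23 (SE, limma adjusted p = 0.000506). Here too the cold and control arrays did not overlap at either time. On 1449051_at the change was 2.52 ± 0.37 at 5 weeks (SE, limma adjusted p = 0.000632) and 2.09 ± 0.37 at 1 week (SE, limma adjusted p = 0.00121). Its signals were 9.27, 9.23 and 10.45 in cold and 6.998, 7.18 and 7.21 in control tissue at 5 weeks, and 8.69, 8.20 and 8.47 in cold and 7.18, 6.16 and 5.75 in control tissue at 1 week.

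The order of the 4 groups was the same on all 3 Ppara probe sets at its upper end. The cold arrays of 5 weeks lay above those of 1 week, these above both control groups, and no array of one level overlapped the next, while the 2 control groups overlapped each other. The probe sets followed each other over the 12 arrays with r of 0.936 to 0.945. They did not match in how the cold effect differed between the times. On 1457721_at the effect was larger at 5 weeks (3.19) than at 1 week (1.46), a difference of 1.72 ± 0.32 (SE, limma adjusted p = 0.0074). On 1439675_at the difference was 0.49 with a 95% interval of -0.77 to 1.75 (limma adjusted p = 0.583), and on 1449051_at it was 0.43 with an interval of -0.73 to 1.59 (limma adjusted p = 0.604). Control arrays 2 and 3 of 1 week, whose Gapdh 3′ minus 5′ signal was high, held the 2 lowest control signals of that time on all 3 probe sets. Without these 2 arrays the change at 1 week was 1.79 on 1439675_at (limma adjusted p = 0.0141), 1.10 on 1457721_at (limma adjusted p = 0.0414) and 1.27 on 1449051_at, which was then not called (limma adjusted p = 0.0719). The control group then held 1 array, assumed to vary like the other groups. With the Gapdh signal as a covariate all 3 were called at 1 week, with changes of 1.57 to 2.23, and at 5 weeks, with changes of 2.51 to 3.72, but the larger effect of 1457721_at at 5 weeks was then not called (1.54, limma adjusted p = 0.344). With the Actb covariate the 5 week change was 2.31 ± 0.37 on 1457721_at (SE, limma adjusted p = 0.0116), 2.96 ± 0.86 on 1439675_at (SE, limma adjusted p = 0.091) and 1.09 ± 0.62 on 1449051_at (SE, limma adjusted p = 0.359), all 3 remained called at 1 week, and the difference between the times on 1457721_at was not called (0.77, limma adjusted p = 0.681).

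**Figure D1:**
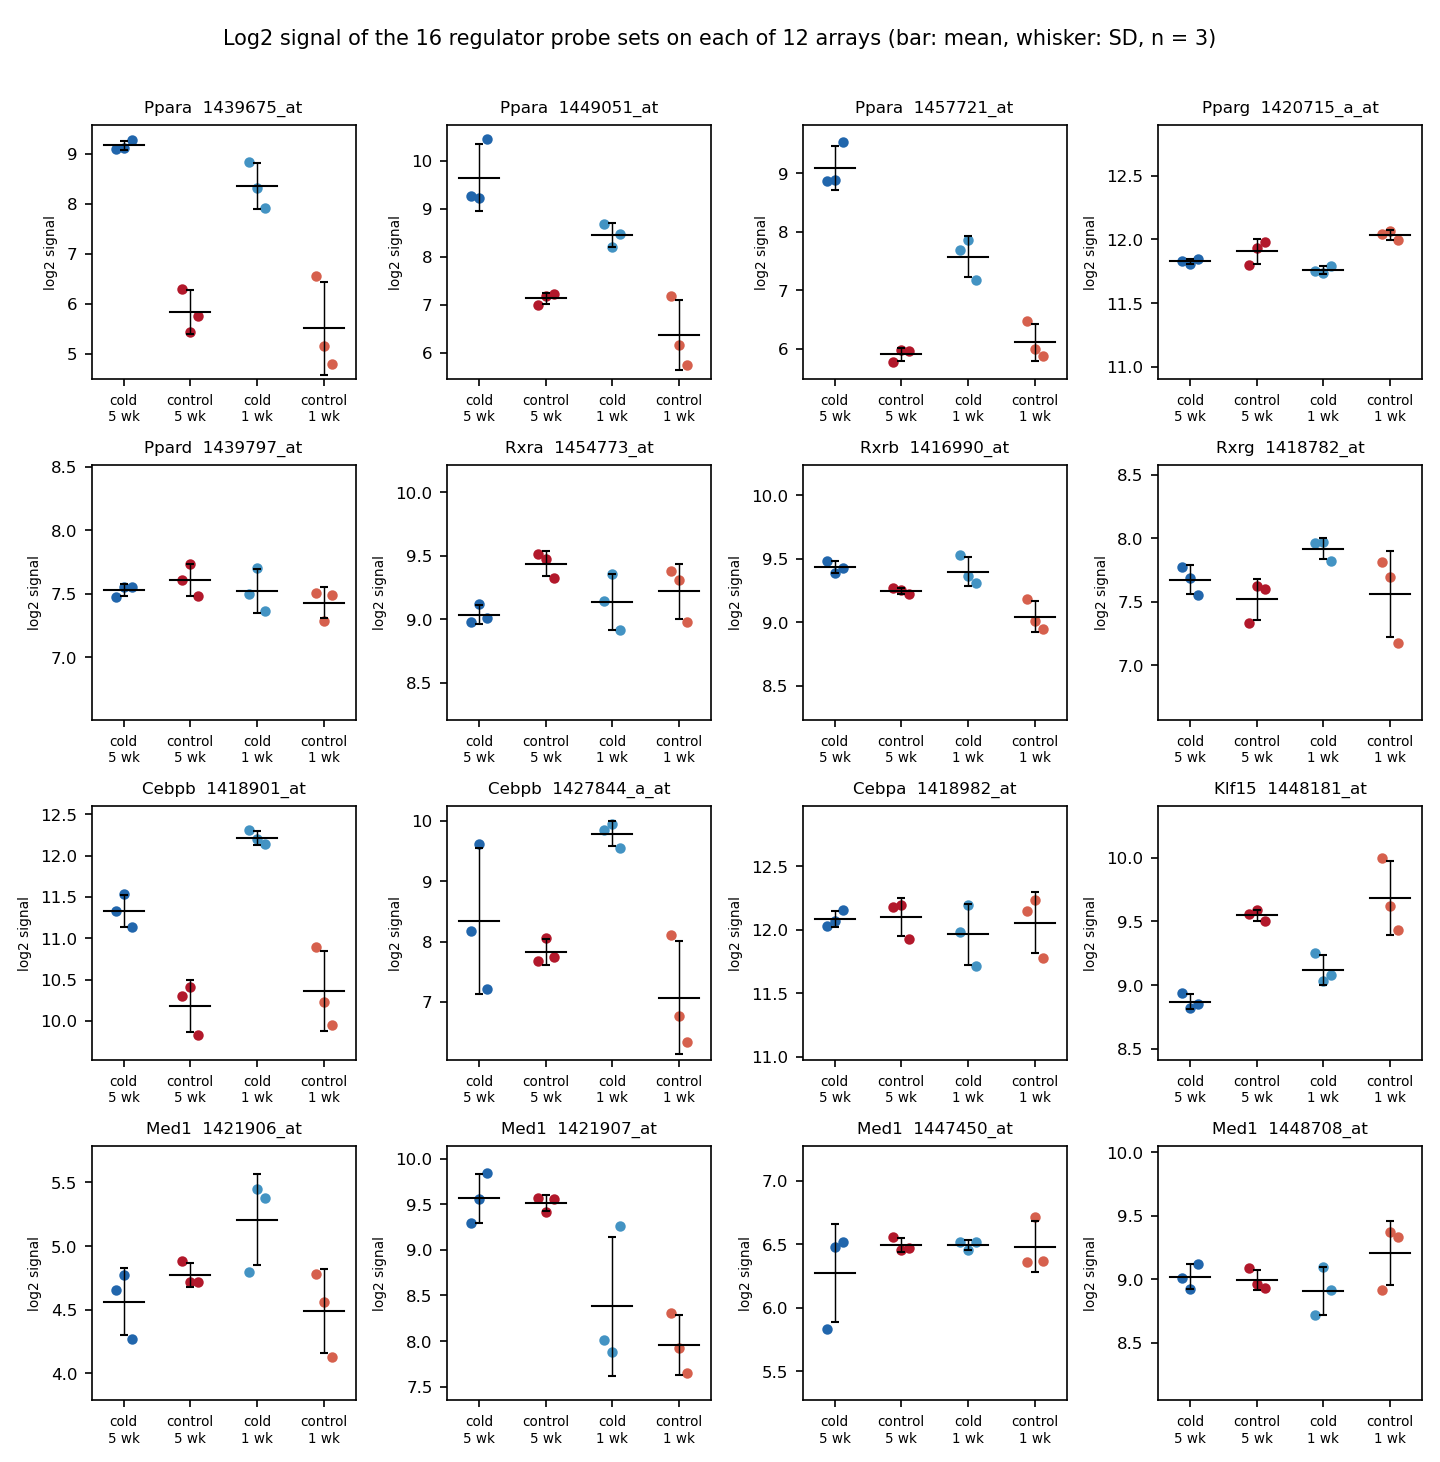
Log2 signal (vertical axes) of each of the 16 regulator probe sets above the filter on the 12 arrays. Points are arrays in the order of their numbers, blue for cold and red for control at 5 weeks (darker) and 1 week (lighter), bars are group means and whiskers the SD (n = 3 each); the vertical axes span different ranges. The Ppara panels show both cold groups above both control groups, and the Klf15 panel shows the reverse.

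Pparg, the central regulator of fat cell formation, was lower in the cold at 1 week by a small amount. The signal of 1420715_a_at, its only probe set, was 11.75, 11.74 and 11.79 on the cold arrays and 12.04, 12.07 and 11.99 on the control arrays at 1 week, a change of -0.27 ± 0.08 (SE, n = 3 each, limma adjusted p = 0.0134). At 5 weeks it was 11.83, 11.80 and 11.85 on the cold arrays and 11.80, 11.94 and 11.98 on the control arrays, a change of -0.08 with a 95% interval of -0.25 to 0.09 (limma adjusted p = 0.469). The groups did not overlap at 1 week and overlapped at 5 weeks. The difference between the times was 0.20, with an interval of -0.04 to 0.43 (limma adjusted p = 0.223), and so did not pass the test. The call at 1 week was lost when arrays were centred on their median, which left a change of -0.11 (limma adjusted p = 0.269), with the Gapdh covariate (-0.27, limma adjusted p = 0.118) and without control arrays 2 and 3 (-0.28, limma adjusted p = 0.118). Centring moved the median of all probe sets at 1 week to 0.12, against -0.04 as deposited. The Pparg change stayed negative, but its size and its call depended on the scaling.

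Ppard passed no test. Its probe set 1439797_at had signals of 7.48, 7.56 and 7.56 on the cold arrays and 7.61, 7.73 and 7.49 on the control arrays at 5 weeks, a change of -0.08 with a 95% interval of -0.32 to 0.16 (limma adjusted p = 0.615). At 1 week the signals were 7.50, 7.70 and 7.36 in cold and 7.50, 7.29 and 7.49 in control tissue, a change of 0.09 with an interval of -0.15 to 0.33 (limma adjusted p = 0.513). The groups overlapped at both times. These intervals leave room for changes of up to 0.33 in size, and they lie below the interval of every Ppara probe set.

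The 3 RXR genes, whose products pair with all PPARs, had changes of at most 0.40 in size, and their calls differed by gene and time. Rxra (1454773_at) was lower at 5 weeks, with 8.98, 9.12 and 9.01 on the cold arrays and 9.51, 9.47 and 9.32 on the control arrays, a change of -0.40 ± 0.13 (SE, n = 3 each, limma adjusted p = 0.043). At 1 week its signals were 9.14, 9.36 and 8.91 in cold and 9.38, 9.31 and 8.98 in control tissue, a change of -0.08 with a 95% interval of -0.38 to 0.21 (limma adjusted p = 0.633). The groups were apart at 5 weeks and overlapped at 1 week, and the difference between the times did not pass the test (-0.32, limma adjusted p = 0.263). The call at 5 weeks was lost when any 1 of the 6 arrays of that time was left out, with changes of -0.45 to -0.36. It was also lost with the muscle markers as a covariate (-0.15, limma adjusted p = 0.59), where the control arrays were the ones with high muscle markers, with the Gapdh covariate (-0.33, limma adjusted p = 0.156), with the Actb covariate (-0.41, limma adjusted p = 0.469) and after centring (-0.24, limma adjusted p = 0.149).

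Rxrb (1416990_at) was higher at 1 week, with 9.53, 9.36 and 9.30 on the cold arrays and 9.18, 9.01 and 8.94 on the control arrays, a change of 0.35 ± 0.09 (SE, n = 3 each, limma adjusted p = 0.0089). At 5 weeks the signals were 9.48, 9.39 and 9.43 in cold and 9.27, 9.25 and 9.22 in control tissue, a change of 0.19 with a 95% interval of -0.01 to 0.39 (limma adjusted p = 0.144). All cold arrays lay above all control arrays at both times. The 1 week call was lost with the Gapdh covariate (0.26, limma adjusted p = 0.177) and without control arrays 2 and 3 (0.21, limma adjusted p = 0.248), and it just missed the threshold in the fit of the 1 week arrays alone (limma adjusted p = 0.0503). After centring the 5 week change was called as well (0.34, limma adjusted p = 0.0167). Rxrg (1418782_at) was called at neither time. Its signals were 7.78, 7.69 and 7.55 in cold and 7.33, 7.63 and 7.60 in control tissue at 5 weeks, a change of 0.15 with an interval of -0.19 to 0.49 (limma adjusted p = 0.493). At 1 week they were 7.96, 7.97 and 7.82 in cold and 7.81, 7.70 and 7.18 in control tissue, a change of 0.35 with an interval of 0.01 to 0.70 (limma adjusted p = 0.0853). The groups overlapped at 5 weeks and were just apart at 1 week, where centring (0.52, limma adjusted p = 0.0182) and quantile normalization (0.52, limma adjusted p = 0.0197) brought a call.

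Cebpb, the early factor of adipogenesis, was higher in the cold on both of its probe sets at 1 week and on 1 of 2 at 5 weeks. On 1418901_at the signal was 11.32, 11.53 and 11.14 on the cold arrays and 10.30, 10.42 and 9.83 on the control arrays at 5 weeks, a change of 1.15 ± 0.23 (SE, n = 3 each, limma adjusted p = 0.00315), or 2.22-fold. At 1 week it was 12.30, 12.21 and 12.14 on the cold arrays and 10.90, 10.23 and 9.95 on the control arrays, a change of 1.85 ± 0.23 (SE, limma adjusted p = 0.000124), or 3.61-fold. The cold arrays of 1 week lay highest, those of 5 weeks next and both control groups lowest, each level apart from the next, with the controls overlapping each other. The effect at 5 weeks minus that at 1 week was -0.70 ± 0.32 and was not called (SE, limma adjusted p = 0.143). The other probe set, 1427844_a_at, gave 8.17, 9.62 and 7.21 in cold and 7.68, 8.07 and 7.74 in control tissue at 5 weeks, a change of 0.51 with a 95% interval of -0.70 to 1.72 (limma adjusted p = 0.519). At 1 week it gave 9.85, 9.95 and 9.55 in cold and 8.12, 6.76 and 6.34 in control tissue, a change of 2.71 ± 0.55 (SE, limma adjusted p = 0.00249).

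The 2 Cebpb probe sets followed each other over the 12 arrays (r = 0.866). On 1427844_a_at the cold arrays at 5 weeks ran from below to above the control arrays. Its lowest cold signal at 5 weeks was on array 3, and its lowest control signals at 1 week were on arrays 2 and 3, the 3 arrays with a high Gapdh 3′ minus 5′ signal. With that signal as a covariate the probe set was called at 5 weeks (1.54, limma adjusted p = 0.00353) and not at 1 week (1.04, limma adjusted p = 0.0627), the reverse of the fit without it. On 1418901_at both calls remained with the covariate, at 1.47 for 5 weeks (limma adjusted p = 0.000793) and 1.34 for 1 week (limma adjusted p = 0.00623). With the Actb covariate 1418901_at was not called at 5 weeks (1.51 ± 0.47, SE, limma adjusted p = 0.108). Averaging both probe sets also lost the call at 5 weeks (0.83, limma adjusted p = 0.0942). Cebpa (1418982_at), which keeps mature fat cells differentiated, had signals of 12.03, 12.07 and 12.16 in cold and 12.18, 12.20 and 11.93 in control tissue at 5 weeks, a change of -0.02 with a 95% interval of -0.34 to 0.31 (limma adjusted p = 0.94). At 1 week they were 11.98, 12.20 and 11.72 in cold and 12.15, 12.24 and 11.78 in control tissue, a change of -0.09 with an interval of -0.42 to 0.24 (limma adjusted p = 0.638). Its groups overlapped at both times.

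Klf15 was the only one of the 10 genes called lower at both times. Its probe set 1448181_at gave 8.94, 8.82 and 8.85 on the cold arrays and 9.56, 9.59 and 9.50 on the control arrays at 5 weeks, a change of -0.68 ± 0.13 (SE, n = 3 each, limma adjusted p = 0.00276), or 1.60-fold lower. At 1 week it gave 9.25, 9.03 and 9.08 on the cold arrays and 9.999, 9.62 and 9.43 on the control arrays, a change of -0.56 ± 0.13 (SE, limma adjusted p = 0.00515), or 1.48-fold lower. The cold arrays of 5 weeks were lowest, those of 1 week next and both control groups highest, and only the controls overlapped each other. The difference between the times was -0.12 with a 95% interval of -0.52 to 0.29 (limma adjusted p = 0.695). Klf15 was called lower under all 19 alternatives at 1 week and under 18 of 19 at 5 weeks, where the exception was the Actb covariate (-0.72 ± 0.28, SE, limma adjusted p = 0.185), with changes of -0.77 to -0.53 at 5 weeks and -0.88 to -0.40 at 1 week. The change at 1 week was largest, at -0.88 (limma adjusted p = 0.00333), without control arrays 2 and 3, which lay lower than control array 1.

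Med1, the nuclear receptor contact of Mediator, had 4 probe sets above the filter that did not follow each other (r of -0.432 to 0.158 over the 12 arrays). On 1421906_at, the dimmest of them, the signal was 4.65, 4.77 and 4.27 on the cold arrays and 4.88, 4.72 and 4.72 on the control arrays at 5 weeks, a change of -0.21 ± 0.21 (SE, n = 3 each, limma adjusted p = 0.477). At 1 week it was 4.79, 5.45 and 5.38 on the cold arrays and 4.78, 4.56 and 4.13 on the control arrays, a change of 0.72 ± 0.21 (SE, limma adjusted p = 0.0168). The groups at 1 week were apart by the narrow gap between cold array 1 and control array 1. The effect at 5 weeks minus that at 1 week was -0.93 ± 0.29 (SE, limma adjusted p = 0.0489). The 1 week call was lost in 6 of 17 alternatives and the call of the difference in 16 of 22. The other 3 probe sets were not called at either time: 1421907_at had changes of 0.05 at 5 weeks and 0.43 at 1 week, 1447450_at of -0.22 at 5 weeks and 0.02 at 1 week, and 1448708_at of 0.03 at 5 weeks and -0.30 at 1 week (limma adjusted p of 0.357 to 0.919 at 5 weeks and 0.0963 to 0.945 at 1 week). On 1421907_at the arrays grouped by time and not by temperature, at 9.30, 9.56 and 9.84 in cold and 9.57, 9.42 and 9.56 in control tissue at 5 weeks, and 8.01, 7.88 and 9.26 in cold and 8.30, 7.92 and 7.65 in control tissue at 1 week. The exception was cold array 3 at 1 week, which lay near the 5 week arrays. Of the 6 probe sets too dim to test, 1439408_a_at and 1453972_x_at were called higher at both times and 1425703_at of Ppard at 5 weeks when no filter was set, with changes of 0.09 to 0.19 at signals of log2 2.23 to 2.72.

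**Figure D2:**
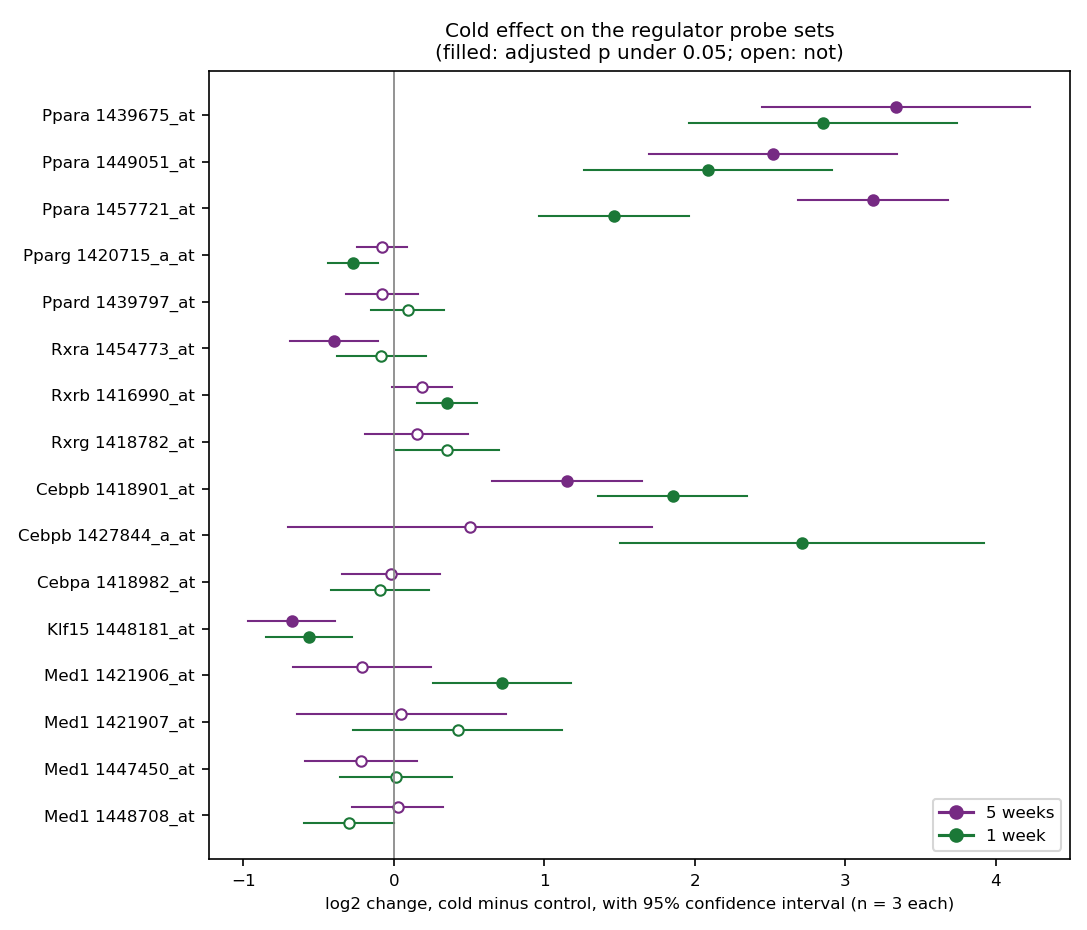
Change of each regulator probe set on the log2 scale, cold minus control (horizontal axis), with its 95% confidence interval (n = 3 each). For each probe set the upper point is the 5 week and the lower point the 1 week effect, and filled points have an adjusted p under 0.05. At 5 weeks the Ppara changes are 2.52 to 3.34 and the next largest, of Cebpb, is 1.15.

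Genes known as PPAR alpha targets in fat oxidation were mostly higher in the cold. Of 25 on the array, 23 had a probe set above the filter, taken as the brightest per gene. At 5 weeks 18 of them rose, 0 fell and 5 were not called, with a median change of 1.40, where 13.9% of all genes so chosen were called higher and 19.9% lower and the median was -0.03. At 1 week 19 rose, 1 fell and 3 were not called, with a median of 1.32, where 17.1% of all genes were called higher and 30.5% lower and the median was -0.08. Pdk4, which holds pyruvate back from oxidation, rose by 4.15 ± 0.19 at 5 weeks (SE, limma adjusted p = 4.88e-07) and 3.18 ± 0.19 at 1 week (SE, limma adjusted p = 2.36e-06). Slc25a20, the carnitine carrier of mitochondria, rose by 2.70 at both times. Etfdh, which passes electrons from fatty acid oxidation to ubiquinone, rose by 2.36 at 5 weeks and 2.28 at 1 week, and the lipid droplet protein Plin5 by 4.01 at 5 weeks and 3.45 at 1 week. Acaa2, a thiolase of mitochondrial fatty acid oxidation, rose by 2.07 at 5 weeks and 2.36 at 1 week. The single fall at 1 week, named after its value was seen, was Vnn1 (-1.52, limma adjusted p = 0.000939), which makes cysteamine from pantetheine. At 1 week 16 rose both with the Gapdh covariate and without control arrays 2 and 3, and at 5 weeks 13 rose with the Actb covariate. These lists were chosen with earlier results of these data known and are not independent evidence of their direction.

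Known PPAR gamma targets rose more often than they fell at both times, and most were not called at 5 weeks. Of 20 on the array 19 were tested. At 5 weeks 7 rose, 1 fell and 11 were not called (median 0.20), where 13.9% of all genes rose and 19.9% fell. At 1 week 12 rose, 1 fell and 6 were not called (median 0.71), where 17.1% of all genes rose and 30.5% fell. The members with the smallest p include Ucp1 and Cidea, thermogenic genes that are also among the brown and beige markers. Ucp1, the uncoupling protein of brown fat, rose by 7.71 ± 0.43 at 5 weeks (SE, limma adjusted p = 1.66e-06) and 7.65 ± 0.43 at 1 week (SE, limma adjusted p = 1.83e-06). The lipid droplet gene Cidea rose by 2.22 at 5 weeks and 3.91 at 1 week, Gpd1, which makes glycerol phosphate, by 1.00 at 5 weeks (-0.045 and not called with the mean of its probe sets, limma adjusted p = 0.96) and 1.78 at 1 week, and Agpat2, an enzyme of triglyceride synthesis, by 0.54 at 5 weeks and 1.42 at 1 week. Angptl4, an inhibitor of lipoprotein lipase that is in both PPAR lists, rose by 1.40 at 5 weeks and 0.66 at 1 week. Retn, which encodes the hormone resistin, fell by 0.47 at 5 weeks (limma adjusted p = 0.00228) and had a change of -0.12 at 1 week (limma adjusted p = 0.268). The single fall at 1 week, named after its value was seen, was the lipid droplet gene Plin4 (-0.65, limma adjusted p = 0.00455). At 1 week the number of rises was 4 with the Gapdh covariate and 5 without control arrays 2 and 3, and at 5 weeks it was 3 with the muscle covariate and 2 with the Actb covariate. The single fall at 5 weeks was lost with either of these last covariates, and there were 2 falls with no filter or with a trend and robust prior.

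Genes reported as KLF15 targets in muscle, liver or fat cells were tested for 6 of 7. At 5 weeks 1 rose, 1 fell and 4 were not called (median 0.08, beside 13.9% higher and 19.9% lower over all genes), and at 1 week 4 rose, 0 fell and 2 were not called (median 0.52, beside 17.1% higher and 30.5% lower), while Klf15 itself was lower at both times. Pck1, which encodes the cytosolic PEPCK, rose by 1.01 at 5 weeks (limma adjusted p = 0.00288) and 0.71 at 1 week (limma adjusted p = 0.0129). Gpt, an alanine aminotransferase, fell by 0.86 at 5 weeks (limma adjusted p = 0.000398) and rose by 0.34 at 1 week (limma adjusted p = 0.0364). The glucose transporter gene Slc2a4 had a change of 0.03 at 5 weeks (limma adjusted p = 0.942) and rose by 1.33 at 1 week (limma adjusted p = 0.00259). Acss2, which activates acetate, had a change of 0.49 at 5 weeks (limma adjusted p = 0.0504) and rose by 0.97 at 1 week (limma adjusted p = 0.00111), and the leucine, isoleucine and valine aminotransferase Bcat2 was not called, with changes of 0.12 at 5 weeks and 0.28 at 1 week. Pck1 and Slc2a4 are also in the PPAR gamma list. The 4 rises at 1 week became 0 with the Gapdh covariate, 1 without control arrays 2 and 3, and 2 without control array 2 or 3 alone or in the fit of the 1 week arrays alone. The single rise at 5 weeks became 3 with the Gapdh covariate, 2 under 6 other alternatives, and 0 with the Actb covariate or the mean of each gene's probe sets, and the fall was lost with the Actb covariate.

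Among nuclear receptors other than PPARs that pair with RXR, 9 of 12 were tested. At 5 weeks 1 rose, 3 fell and 5 were not called (median -0.05, beside 13.9% higher and 19.9% lower over all genes), and at 1 week 4 rose, 0 fell and 5 were not called (median 0.45, beside 17.1% higher and 30.5% lower). Nr1h3, the oxysterol receptor LXR alpha, fell by 0.64 at 5 weeks (limma adjusted p = 0.00878) and rose by 0.53 at 1 week (limma adjusted p = 0.0162). The retinoic acid receptor Rarg likewise fell by 0.53 at 5 weeks (limma adjusted p = 0.0262) and rose by 0.66 at 1 week (limma adjusted p = 0.00626). The vitamin D receptor Vdr rose by 0.57 at 5 weeks (limma adjusted p = 0.0317) and 0.59 at 1 week (limma adjusted p = 0.0202). The thyroid hormone receptor Thra fell by 0.36 at 5 weeks (limma adjusted p = 0.0271) and had a change of -0.14 at 1 week, and the orphan receptor Nr4a2 had a change of 0.19 at 5 weeks and rose by 0.45 at 1 week (limma adjusted p = 0.00371). The 4 rises at 1 week became 0 with the Gapdh covariate or without control arrays 2 and 3, and 2 without cold array 3 or control array 3. The 3 falls at 5 weeks became 1 with the muscle or the Gapdh covariate, after centring or quantile normalization, with the mean of each gene's probe sets, and without cold array 1, cold array 3, control array 1 or control array 2, and 0 with the Actb covariate. The single rise at 5 weeks became 3 after centring and 2 with the mean of each gene's probe sets, and was lost with the muscle or the Actb covariate and without cold array 1 or 2 or control array 1 or 2.

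Coactivators and corepressors of nuclear receptors moved in both directions. Of 20 tested, 5 rose, 3 fell and 12 were not called at 5 weeks (median 0.12), where 13.9% of all genes rose and 19.9% fell. At 1 week 3 rose, 12 fell and 5 were not called (median -0.43), where 17.1% of all genes rose and 30.5% fell. Ppargc1a and Ppargc1b, coactivators of mitochondrial and thermogenic genes, rose by 1.79 and 1.82 at 5 weeks (limma adjusted p = 3.42e-05 and 3.77e-05) and by 1.64 and 1.63 at 1 week (limma adjusted p = 4.09e-05 and 4.97e-05). Pprc1, the third gene of that family, fell by 1.06 at 5 weeks and 0.65 at 1 week. The p160 coactivator Ncoa2 fell by 0.50 at 5 weeks and 0.87 at 1 week. Hdac3, the deacetylase of the NCoR corepressor complex, fell by 0.45 at 5 weeks (limma adjusted p = 0.0081) and rose by 0.94 at 1 week (limma adjusted p = 7.98e-05), and the deacetylase Sirt1 had a change of -0.12 at 5 weeks (limma adjusted p = 0.475) and fell by 1.03 at 1 week (limma adjusted p = 7.62e-05). The 12 falls at 1 week became 4 with the Gapdh covariate and 3 without control arrays 2 and 3, and the 3 falls at 5 weeks became 0 with the muscle or the Actb covariate. The 5 rises at 5 weeks became 3 to 4 when single arrays were left out (3 without any array of that time but control array 2) and 2 with the Gapdh or the Actb covariate.

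Of the 32 other Mediator subunits, all tested, 2 rose, 3 fell and 27 were not called at 5 weeks (median -0.14), where 13.9% of all genes rose and 19.9% fell. At 1 week 2 rose, 11 fell and 19 were not called (median -0.16), where 17.1% of all genes rose and 30.5% fell, so the falls at 1 week were near the share over all genes. The scaffold subunit Med14 had a change of -0.25 at 5 weeks (limma adjusted p = 0.0685) and fell by 0.63 at 1 week (limma adjusted p = 0.00046). Med17, of the head module, fell by 0.55 at 5 weeks and 0.77 at 1 week, Med23, of the tail module, had a change of -0.25 at 5 weeks and fell by 0.83 at 1 week, and the kinase Cdk19 fell by 0.41 at 5 weeks and 0.55 at 1 week. Of the subunits with the smallest p at 5 weeks, Med11 fell by 0.53 at 5 weeks and had a change of -0.01 at 1 week, Med18 rose by 0.40 at 5 weeks and 0.32 at 1 week, and Med13l rose by 0.63 at 5 weeks and fell by 0.34 at 1 week. The 11 falls at 1 week became 1 with the Gapdh covariate or without control arrays 2 and 3, 4 after centring, 5 after quantile normalization, 7 in the fit of the 1 week arrays alone and 6 without cold array 1, control array 2 or control array 3. The 2 rises at 1 week became 6 after centring, 5 after quantile normalization, 0 with the Gapdh covariate or without control arrays 2 and 3, and 1 with the replicate block, in the fit of the 1 week arrays alone and without cold array 3, control array 2 or control array 3. The 3 falls at 5 weeks became 5 with the Gapdh covariate, and 1 with the Actb covariate, after centring or quantile normalization and without control array 2 or 3. The 2 rises at 5 weeks became 4 after centring, 1 with the Gapdh covariate and without cold array 2 or 3 or control array 2 or 3, and 0 with the Actb covariate.

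Other transcription factors that promote fat cell formation (24 tested) had 5 rises, 5 falls and 14 not called at 5 weeks (median -0.07, beside 13.9% higher and 19.9% lower over all genes), and 1 rise, 11 falls and 12 not called at 1 week (median -0.31, beside 17.1% higher and 30.5% lower). Cebpd, the other early C/EBP factor, fell by 1.06 at 5 weeks (limma adjusted p = 0.000237) and 0.96 at 1 week (limma adjusted p = 0.000258), opposite to Cebpb. Klf6 fell by 1.04 at 5 weeks and 1.01 at 1 week, Xbp1, a factor of the unfolded protein response, by 0.52 at 5 weeks and 0.62 at 1 week, and Creb1 by 0.61 at 5 weeks and 1.25 at 1 week. Ebf2, a factor of brown and beige fat cells, rose by 0.78 at 5 weeks (limma adjusted p = 0.00156) and had a change of -0.16 at 1 week (limma adjusted p = 0.339). The 11 falls at 1 week became 7 with the Gapdh covariate, without control arrays 2 and 3, in the fit of the 1 week arrays alone and without cold array 3. The single rise at 1 week became 3 after centring, 2 with the mean of each gene's probe sets, and 0 with the Gapdh covariate or without control arrays 2 and 3. At 5 weeks the rises became 2 with the muscle covariate or the mean of each gene's probe sets and 0 with the Actb covariate. The falls at 5 weeks became 8 in the fit of the 5 week arrays alone, 7 with the mean of each gene's probe sets, 3 after centring and without cold array 1, cold array 2 or control array 2, and 1 with the Actb covariate.

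Factors that restrain fat cell formation (18 of 20 tested) had 0 rises and 7 falls at 5 weeks (median -0.31, beside 13.9% higher and 19.9% lower over all genes) and 0 rises and 7 falls at 1 week (median -0.32, beside 17.1% higher and 30.5% lower). Klf2 fell by 1.20 at 5 weeks and 0.89 at 1 week, Id2 by 0.64 at 5 weeks and 0.58 at 1 week, and the progenitor factor Zfp521 by 0.68 at 5 weeks and 1.27 at 1 week. The interferon regulatory factor Irf3 fell by 0.96 and the Notch target Hes1 by 0.60 at 5 weeks, and they had changes of -0.36 (Irf3) and -0.12 (Hes1) at 1 week. Klf3 had a change of -0.08 at 5 weeks and fell by 0.51 at 1 week, but with the mean of its probe sets the 1 week change was 0.13 and not called (limma adjusted p = 0.338). The falls at 1 week were 1 without control arrays 2 and 3 and 3 with the Gapdh covariate, and those at 5 weeks were 4 with the muscle covariate and 1 with the Actb covariate. After centring 2 rose at 5 weeks. The macrophage, lymphocyte and progenitor markers given above, lower in the cold at both times, moved with these falls, and their part in them was not tested.

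**Figure D3:**
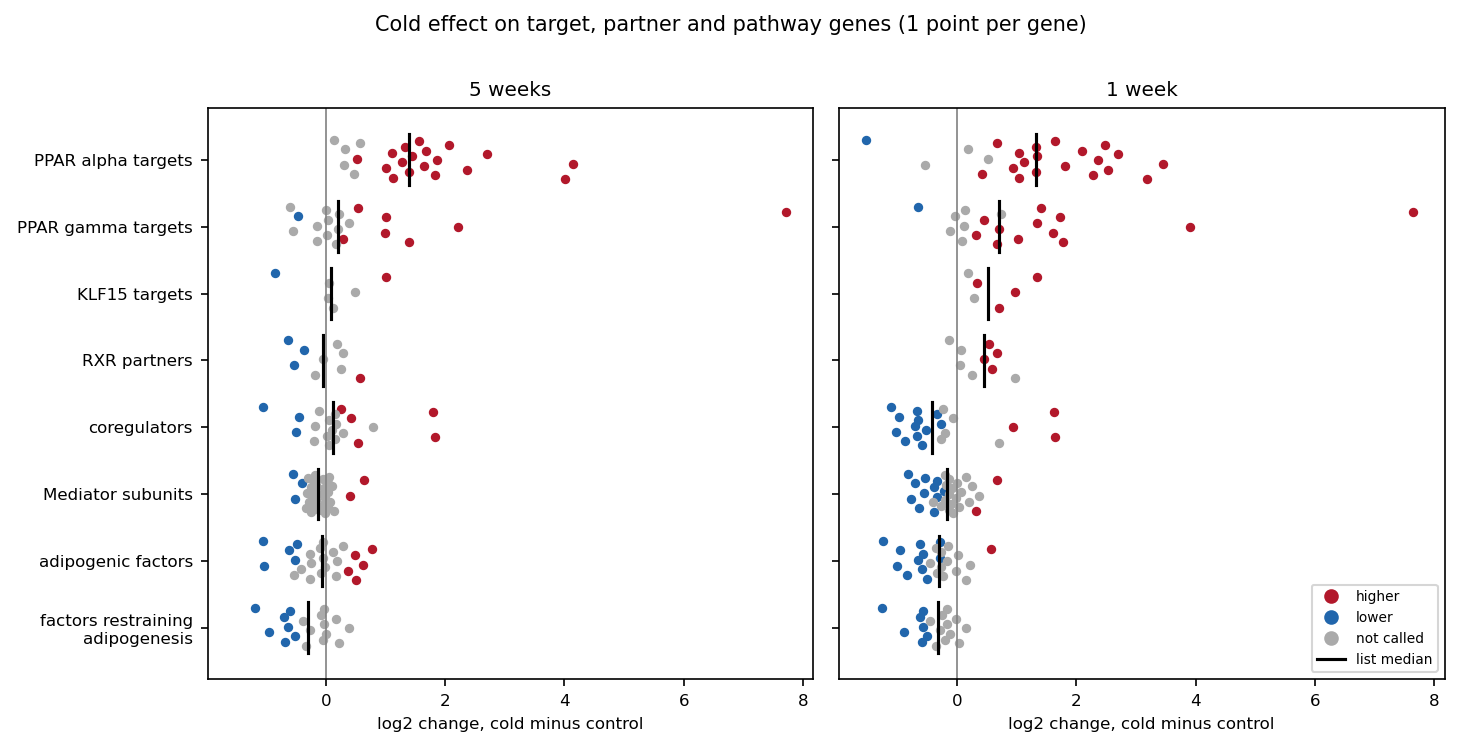
Change of each tested gene of the 8 lists on the log2 scale, cold minus control (horizontal axis), at 5 weeks (left) and 1 week (right). Each point is a gene (brightest probe set), red where called higher, blue where called lower and grey where not called, and the black bar is the list's median. The PPAR alpha targets lie mostly to the right of 0 at both times, with medians of 1.40 at 5 weeks and 1.32 at 1 week.

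The 10 genes were also set against each other and against all other tested genes by Pearson's r of the log2 signal over the 12 arrays, with the brightest probe set of each gene. All arrays share the 4 groups, so these values describe a common pattern over groups and carry no test. Ppara ran with Rxrb (r = 0.878) and opposite to Klf15 (r = -0.794), and Pparg ran opposite to Rxrb (r = -0.799) and Cebpb (r = -0.768). Cebpb ran with Rxrg (r = 0.765). Cebpa and Ppara had an r of 0.041.

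The genes most like Ppara in pattern were Pm20d1 (r = 0.974), which encodes a secreted enzyme that makes N-acyl amino acids, and Yif1a (r = 0.964), a protein of transport between the endoplasmic reticulum and the Golgi. Pm20d1 averaged 8.89 in cold and 6.15 in control tissue at 5 weeks, and 7.93 in cold and 5.69 in control tissue at 1 week, the same order of groups as Ppara. The genes most like Cebpb were Ecsit (r = 0.989), an assembly factor of mitochondrial complex I, and Alas1 (r = 0.987), the first enzyme of haem synthesis. Alas1 averaged 11.40 in cold and 10.77 in control tissue at 5 weeks, and 12.02 in cold and 10.77 in control tissue at 1 week. Klf15 was matched by Atp6v1c1 (r = 0.963), a subunit of the vacuolar proton pump, and by Cebpd (r = 0.958), which averaged 8.21 in cold and 9.27 in control tissue at 5 weeks, and 8.44 in cold and 9.40 in control tissue at 1 week. Pparg was matched by Gfpt1 (r = 0.945), the entry enzyme of hexosamine synthesis, and Hspa5 (r = 0.937), the chaperone BiP, both lowest in cold tissue at 1 week. Rxrb was matched by Rab3a (r = 0.944) and Lims2 (r = 0.943), Rxrg by the peroxisome gene Pex11a (r = 0.943) and Nat8l (r = 0.930), which makes N-acetylaspartate, and Rxra by Amotl2 (r = 0.925) and Mfsd5 (r = 0.917). The best values were lower for Cebpa, with Unc45b (r = 0.838) and Ptpa (r = 0.830), and for Ppard, with Nosip (r = 0.811) and Hip1r (r = 0.807). The signals of Cebpa and Ppard themselves varied little between groups. For Med1 (1448708_at) they were Srrm1 (r = 0.950) and Lef1 (r = 0.915).

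**Figure D4:**
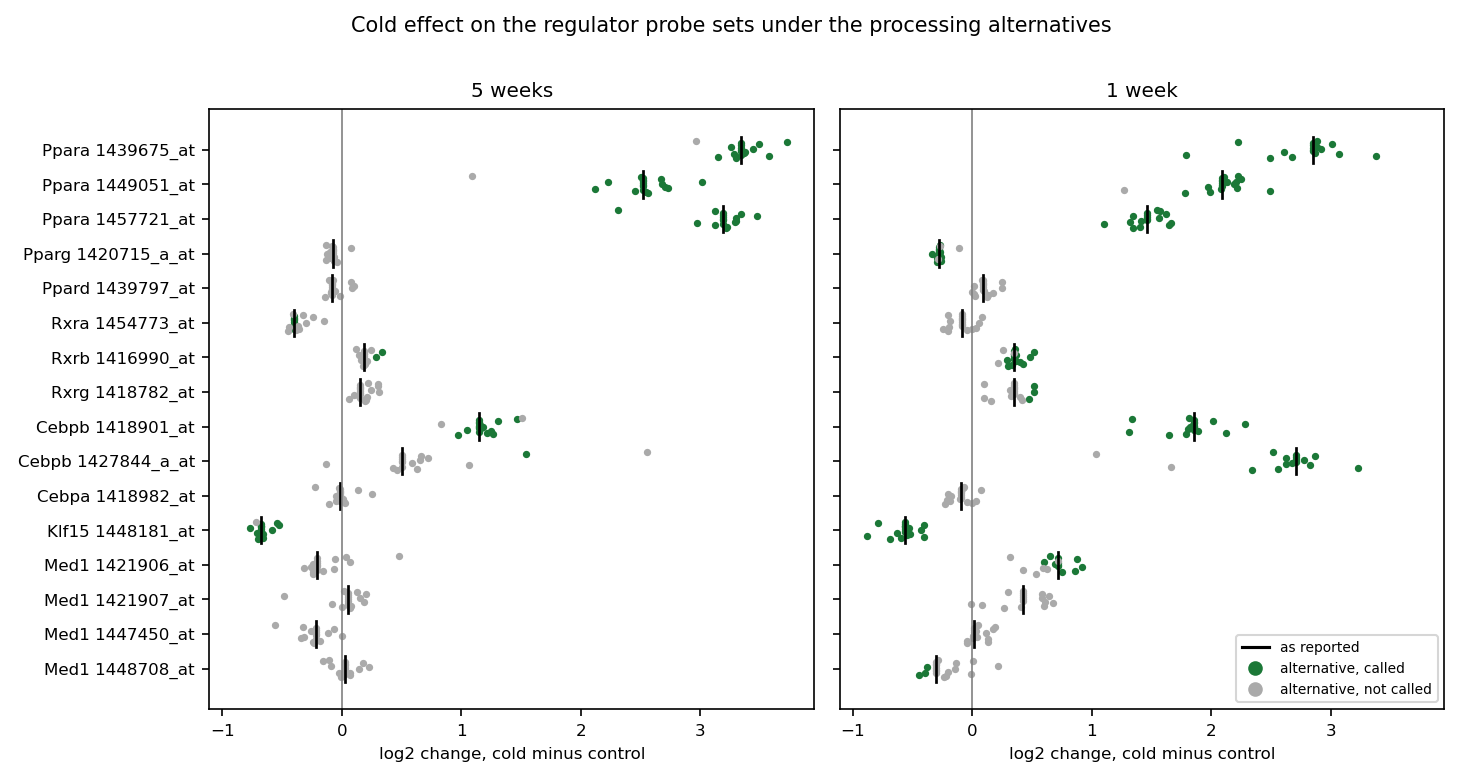
Change of each regulator probe set on the log2 scale, cold minus control (horizontal axis), at 5 weeks (left) and 1 week (right), as reported (black bar) and under each processing alternative (points; green where the adjusted p was under 0.05, grey where not). Klf15 and all Ppara probe sets keep their side of 0 under every alternative drawn, with Ppara 1439675_at between 2.96 and 3.72 at 5 weeks and between 1.79 and 3.38 at 1 week.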

How the data were processed

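The deposited values are log2 signals of each probe set on each array. They come from GCRMA, per the submitters' processing notes, whose version is not given in the sources used. GCRMA corrects background by probe sequence, normalizes arrays to each other and summarises probes. Per the labels' protocols, RNA was extracted with Trizol and 5 µg was amplified in 1 round and labelled with biotin. There were 45101 probe sets (64 controls) and 0 missing values, and array medians were 4.79 to 4.89. Precision is limited by the number of arrays.

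Probe sets took their gene from the array annotation, with symbols updated by gene identifier: 34958 named 1 gene (34754 updated), 932 several and 9211 none. Probe sets above log2 4 on at least 3 arrays, 26510 without controls, were tested with lmFit and eBayes of limma 3.58.1 in R 4.3.3 (4 group means, 12 arrays, 2-sided, Benjamini-Hochberg over the 26510, threshold 0.05) for the cold effect at 5 weeks, at 1 week, and the first minus the second. The code was tested on simulated data. Named were every probe set of the 10 genes, the 4 genes of each of 8 lists with the smallest adjusted p at each time (brightest probe set per gene), and the 2 genes most correlated with each regulator. The regulators, lists and rules were chosen with earlier results of these data known. Alternatives were the filter, the scaling, the unit of the test, the prior, the arrays in the fit, the replicate block, the Gapdh 3′ minus 5′ signal, the muscle markers and, chosen after seeing the data, the Actb 3′ minus 5′ signal as covariates, and leaving arrays out. Replicate numbers of the titles did not pair the arrays: deviations of same-numbered arrays correlated at -0.17 to 0.16, over 0.1 in 2 of 18 pairs. Sequences are from RefSeq (GRCm38.p6).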

Additional observations from a re-analysis of the deposited data

Results flagged for a closer look

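The cold effect differed between the times for 14 probe sets of the regulators and of the list genes named by smallest adjusted p. They were drawn from the 16 regulator probe sets and the 32 list genes named at each time, some of them at both. Over all tested probe sets, 10.2% were called larger and 9.47% smaller at 5 weeks. The list genes were picked by their cold effects, so the count of 14 does not measure how common such differences are. Each was tested as the effect at 5 weeks minus that at 1 week in limma. Among the regulators these were Ppara 1457721_at (1.72, from effects of 3.19 at 5 weeks and 1.46 at 1 week) and Med1 1421906_at (-0.93, from -0.21 at 5 weeks and 0.72 at 1 week). Among target genes they were Pdk4 (0.97), Agpat2 (-0.88), Slc2a4 (-1.30) and Gpt (-1.20), the last higher at 1 week and lower at 5 weeks. Among receptors and coregulators they were Nr1h3 (-1.17), Rarg (-1.19), Hdac3 (-1.40) and Sirt1 (0.92). The first 3 of these were lower at 5 weeks and higher at 1 week. Among Mediator subunits and other factors they were Med13l (0.97), Med11 (-0.52), Ebf2 (0.94) and Klf3 (0.43, which turned to -0.59 with the mean of its probe sets, limma adjusted p = 0.0246). Outside these 14, the PPAR alpha target Vnn1, named after its value was seen, also differed (2.10, limma adjusted p = 0.0066). Its effects were 0.57 at 5 weeks and -1.52 at 1 week. The arrays with a high Gapdh 3′ minus 5′ signal lie in the cold group of 5 weeks and the control group of 1 week, and with that signal as a covariate only 5 of all 26510 probe sets were called for this difference, against 5203 without it. The Actb 3′ minus 5′ signal was high on all 3 cold arrays of 5 weeks (1.84 to 2.80) and 1.01 to 1.35 on the other 9 arrays. With it as a covariate, an alternative chosen after seeing the data, limma called 0 probe sets for this difference, 2151 having an unadjusted p under 0.05, and the SE of the difference was 1.73 times as large (median over all probe sets).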

How the results depend on the processing

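Of 4986 values and counts compared over 25 settings, 4361 kept their side of the threshold or stayed within the tolerance. A turn in direction was counted against a value only where at least 1 of the 2 fits compared made a call. Ppara 1457721_at was called at both times under every alternative run, and Ppara 1439675_at and Klf15 under every one but the Actb covariate at 5 weeks. That covariate was chosen after seeing the data. It left 1056 calls at 5 weeks (65.5% of them higher), 11549 at 1 week and 0 for the difference, and regulator counts of 1 higher and 0 lower at 5 weeks, 4 higher and 2 lower at 1 week, and 0 for the difference. Over all probe sets, 8254 were called at 5 weeks (5948 to 7272 with 1 array left out, 4655 with the brightest probe set per gene, 4666 with the mean per gene, 4182 with the muscle covariate). At 1 week 11847 were called (9479 to 11644 with 1 array left out, 4893 with the Gapdh covariate, 6361 brightest, 6054 mean, 4555 without control arrays 2 and 3). For the difference of the effects 5203 were called (2838 to 6034 with 1 array left out, 5 with the Gapdh covariate, 2551 brightest, 2235 mean, 1562 with the muscle covariate, 331 without control arrays 2 and 3). At 1 week 11775 were called with the muscle covariate and 11549 with the Actb covariate. The brightest and mean counts are out of 12855 genes, and the other counts of called probe sets above are out of 26510. Fewer features are tested per gene, and fewer arrays or an added covariate leave fewer degrees of freedom. The part of these in the counts, and any other cause, was not tested. Regulators higher at 5 weeks numbered 2, but 1 with the mean per gene and 4 with no filter. Those lower at 5 weeks numbered 2, but 1 with the Gapdh covariate, the muscle covariate, centring, quantile normalization and any array of that time left out (1 to 1). Those higher at 1 week numbered 4, but 2 with the Gapdh covariate, with the arrays of that time only and without control arrays 2 and 3 (3 to 5 with 1 array left out). Those lower at 1 week numbered 2, but 1 with the Gapdh covariate, centring and without control arrays 2 and 3 (2 to 3 with 1 array left out). For the difference, 1 regulator was higher, but 0 with the Gapdh covariate and with the brightest or the mean probe set per gene; 1 was lower, but 0 with these 3, with the muscle covariate, no filter, quantile normalization, the replicate block and without control arrays 2 and 3 (0 to 2 with 1 array left out). The replicate block, on numbers that did not pair the arrays, gave 7984 calls at 5 weeks, 11599 at 1 week and 4881 for the difference, and changed 1 regulator call, the difference of Med1 1421906_at. The share of calls that were higher was 40.5% at 5 weeks (67.1% after centring, 51.5% after quantile normalization) and 39.1% at 1 week (60.9% and 47.6%), as centring moved the median of all probe sets to 0.14 at 5 weeks and 0.12 at 1 week. Among values called in at least 1 of the 2 fits, direction turned for Gpd1 at 5 weeks (-0.045) with the mean of its probe sets. It turned likewise for Klf3 at 1 week (0.13) and in the difference (-0.59). With the Gapdh covariate it turned for Slc2a4 in the difference (0.0056). Values called in neither fit also turned. With the Actb covariate, Ppara 1449051_at in the difference went from 0.43 to -1.13, and Med1 1421906_at at 5 weeks from -0.21 to 0.48. The cause of these turns was not tested. Of the 30 list genes named at 5 weeks and called, 10 lost the call with the muscle covariate and 19 with the Actb covariate, and of 32 at 1 week, 12 lost it with the Gapdh covariate.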
